A study of Arabidopsis thaliana with 28 samples.

Results

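ARR3 (AT1G59940) and ARR4 (AT1G10470) are paralogous type-A response regulator genes on chromosome 1 of Arabidopsis thaliana, and they are 2 of the 27444 nuclear protein-coding genes read in the same peak lists. They were taken by name, not by a measured value, though with earlier results of these data known. Every ATAC-seq peak over the TAIR10 gene body plus 3 kb on either side was mapped in all 16 libraries, together with the percent of the gene body plus 1 kb on either side that lay under a peak, called the window covered percent here. ATAC-seq marks accessible DNA through the insertion of sequencing adapters by Tn5 transposase, and a peak is a stretch where insertions pile up.

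Cytokinins are perceived by histidine kinase receptors, and the phosphate passes through phosphotransfer proteins to the response regulators in the nucleus. Type-B regulators bind DNA and activate transcription, and the genes of the type-A regulators are among their direct targets and among the earliest cytokinin-induced genes. Type-A proteins carry a receiver domain without a DNA-binding domain and dampen the pathway. ARR3 and ARR4 form a closely related pair that also acts in the circadian clock, and ARR4 binds the photoreceptor phytochrome B.

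Roots or shoots were treated in liquid MS for 45 min, either with vehicle (control) or with BA, the cytokinin benzyladenine, at 5 µM. The wild type (WT) was Col-0, with 4 control and 4 BA root libraries and 2 control and 2 BA shoot libraries. The arr1,10,12 mutant, which lacks the type-B regulators ARR1, ARR10 and ARR12, was sampled as roots only, with 2 control and 2 BA libraries. The series text calls the libraries biological replicates, without saying whether each came from separate plants, and nuclei were sorted by DAPI fluorescence rather than by cell type. In such bulk nuclei, fewer nuclei with an open site and less opening in each nucleus cannot be told apart.

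The 16 libraries held 30778 to 36358 peaks that covered 19.7 to 28.7 Mb. The lists hold no read numbers, so the depth behind each library is unknown. Over all protein-coding windows the mean covered percent was 28.8 ± 1.9 (SD, n = 4) in WT control roots and 27.0 ± 1.1 (n = 4) in WT BA roots. It was 22.7 ± 2.9 and 23.6 ± 1.4 in control and BA shoots, and 28.2 ± 1.9 and 26.4 ± 1.8 in control and BA arr1,10,12 roots (n = 2 each). The mean was lower in shoots than in roots, and slightly lower with BA in roots of both genotypes. The lists do not check the mutant label, since a peak does not show an insertion. The windows of ARR1, ARR10 and ARR12 were 58.0, 39.1 and 39.2% covered in control arr1,10,12 roots and 60.5, 42.0 and 50.7% in WT control roots.

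The 2 loci differed in how much of them was open. ARR3 is 1617 bp long and held a compact peak region present in all 16 libraries and a small second one in 2 of them, with most of the surroundings under no peak. ARR4 is 2373 bp long and lay inside a region of peaks that ran past both gene ends in every library. Of the 7617 bp of the ARR3 body plus 3 kb on either side, 71.1% was under no peak in any library, and 4.57% was under a peak in all 16. Of the 8373 bp around ARR4, 52.1% was under a peak in all 16 libraries and no base was without a peak in all of them.

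At ARR3 all 16 libraries had peaks in 1 joined region at chr1:22064328-22066208, 1881 bp wide, which spans the lower-coordinate end of the gene. The gene table used here gives no strand, so flanks are named by lower and higher coordinate. The 348 bp covered in every library, at 22065687 to 22066034, lay inside the gene body, 70 to 417 bp from its lower-coordinate end. No library had a peak in the 3 kb beyond the higher-coordinate end.

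**Figure D1:**
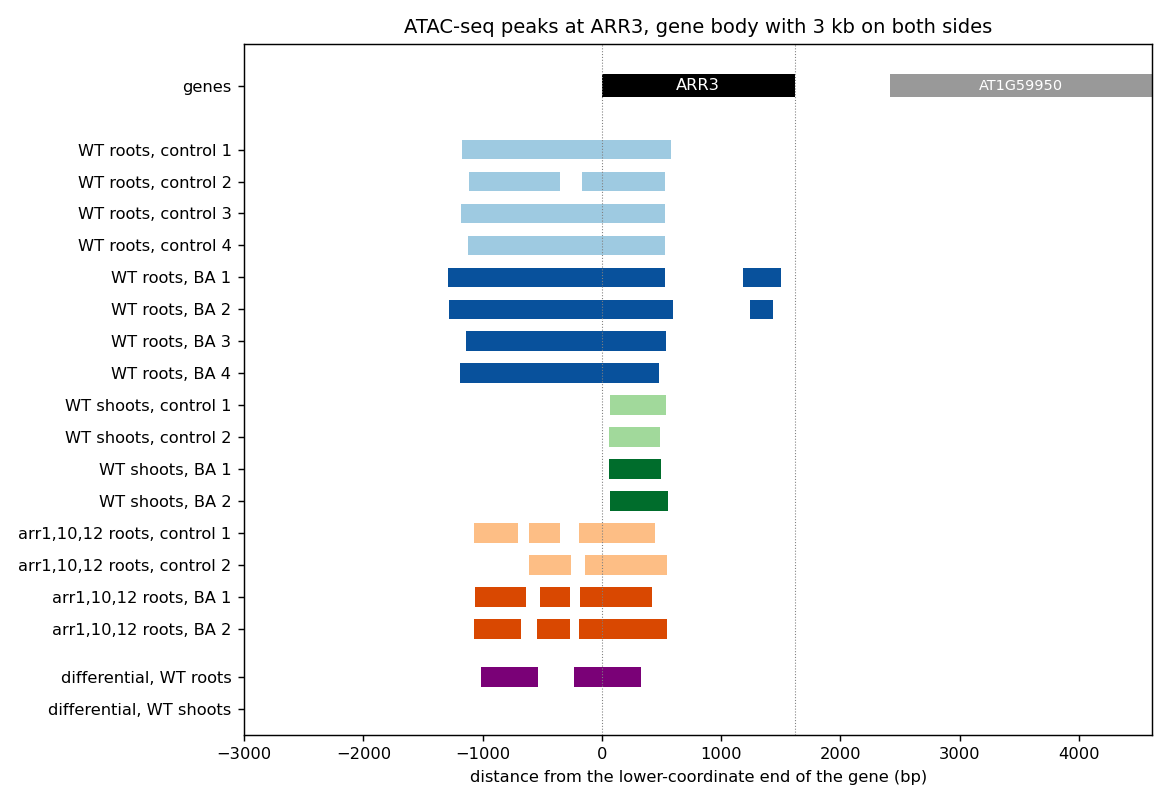
Peaks of each library (rows) along the ARR3 gene body plus 3 kb on either side; the x axis gives the distance in bp from the lower-coordinate end of the gene, bars are peaks, purple bars are the authors' differential regions, and dotted lines mark the gene ends. The peaks of WT roots reach over the lower-coordinate flank, those of shoots stay inside the gene body, and those of arr1,10,12 roots are broken into 2 or 3 pieces.

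In WT roots the region was mostly 1 unbroken peak. Control libraries 1, 3 and 4 had a single peak of 1757, 1717 and 1654 bp, and control library 2 had 2 peaks of 763 and 693 bp. With BA the peak over the region was 1820, 1878, 1675 and 1666 bp wide in libraries 1 to 4. BA libraries 1 and 2 had in addition a small separate peak of 320 and 200 bp in the second part of the gene body, at 22066796 to 22067115 when joined, which none of the other 14 libraries had.

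In shoots the same region held 1 short peak, inside the gene. It was 467 and 430 bp wide in the control libraries and 436 and 487 bp wide with BA. The 1 kb flank on the lower-coordinate side was 100, 81.4, 100 and 100% covered in WT control roots and 100% in all 4 BA root libraries, against 0% in all 4 shoot libraries. The 2 tissues therefore did not overlap in that flank. Bases under a peak in all 8 WT root libraries and in no shoot library made up 987 bp, in stretches of 763 bp (22064503 to 22065265) and 224 bp (22065452 to 22065675).

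In arr1,10,12 roots the region was intermediate and broken. The peak on the gene body was 638 and 685 bp wide in the control libraries and 604 and 737 bp with BA, and each library had 1 or 2 further short peaks in the lower-coordinate flank. That 1 kb flank was 75.0 and 48.5% covered in control and 80.3 and 78.7% covered with BA. All 4 values lay below those of the WT root libraries, of which the lowest was 81.4%. Only 62 bp were covered in all 8 WT root libraries and in no arr1,10,12 library, in stretches of 41 and 21 bp.

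The window covered percent of ARR3 put these maps in numbers. In WT control roots it was 43.7, 37.1, 42.3 and 42.4% in libraries 1 to 4, with a mean of 41.4 ± 2.9 (SD, n = 4). In WT BA roots it was 51.2, 49.5, 42.4 and 40.9%, with a mean of 46.0 ± 5.1 (n = 4). BA libraries 1 and 2 stood above every control library, whereas BA libraries 3 and 4 lay within the control range.

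In shoots the values were 12.9 and 11.9% in control and 12.1 and 13.5% with BA. In arr1,10,12 roots they were 33.1 and 28.5% in control and 33.8 and 36.8% with BA. The order of the group means was WT BA roots, WT control roots, arr1,10,12 BA roots, arr1,10,12 control roots and then both shoot groups. Neighbours in that order that overlapped were the 2 WT root groups and the 2 shoot groups. The arr1,10,12 groups lay close, with 33.1% as the highest control value and 33.8% as the lowest BA value.

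ARR3 was more open in WT roots than in WT shoots. The difference was 31.1 percentage points (means of 43.7% over 8 root libraries and 12.6% over 4 shoot libraries), with no overlap between tissues in either treatment. The exact permutation p within treatments was 0.00444, the smallest that this design can give, and the Benjamini-Hochberg adjusted p over all windows was 0.0141. These permutations treat control and BA root libraries of the same replicate number as independent, although they were correlated. With whole pairs as units the smallest exact p is 0.0667. Of 25007 windows with a peak, 35.5% passed that test with a higher value in roots, 26.6% had every root library above every shoot library, and the median difference was 3.35 points. A higher window in roots was therefore common, and the ARR3 difference was at percentile 95.7 of all windows. With each library's mean over all windows subtracted, it was 26.4 points (adjusted exact p = 0.0128). For the gene body alone the difference was 9.18 points and did not pass (adjusted exact p = 0.143). In the gene body WT control roots had 35.9, 32.7, 32.8 and 33.0% and control shoots 28.9 and 26.6%.

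ARR3 values in WT roots were higher than in arr1,10,12 roots, but not past the threshold after adjustment. The difference was 10.6 points (means of 43.7% and 33.0%, n = 8 and 4), with no overlap, a pattern found in 1.27% of the 24607 windows. The exact permutation p was 0.00444, the smallest possible here, and the adjusted p was 0.275. No window passed the adjusted threshold in that comparison, in which 2568 windows had an unadjusted p under 0.05. Even the smallest p could pass after adjustment only if many windows shared it. The difference was 10.6 points in control and 10.7 points with BA, so that it was of like size in both treatments. With gaps of up to 150 bp bridged, which closes some breaks between the arr1,10,12 peaks, it was 6.35 points (exact permutation p = 0.0311, adjusted p = 0.442). It was 7.08 points for the gene body alone and 6.83 points with 3 kb flanks.

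The ARR3 difference between BA and control roots lay between the SDs of the 2 groups, 2.9 points in control and 5.1 with BA. It was 4.62 points in WT roots, where the 2 groups overlapped (exact permutation p = 0.229, adjusted p = 0.883). Neither ARR3 nor ARR4 was among the windows in which every BA root library exceeded every control root library, which were 0.249% of 24541. By replicate number the BA values exceeded control by 7.46, 12.4 and 0.0829 points in pairs 1 to 3 and differed by -1.52 points in pair 4. In pair 1 the 1 kb flank on the lower-coordinate side was 100% covered in both libraries. The main peak ended 580 bp into the gene body in control and 530 bp with BA. The rise of pair 1 therefore lay in the small second peak of 320 bp. In pair 2 the rise lay in the second peak of 200 bp, in the break of the control peak that was absent with BA, and in a shift of the peak edge.

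In shoots the BA and control means of ARR3 differed by 0.359 points. In arr1,10,12 roots the BA mean was 4.49 points above control and the 2 groups did not overlap, which was the case for 4.92% of windows. With 2 libraries against 2 the smallest exact p is 0.333, so these are values without a test. The difference between the BA effects was 4.26 points for WT roots against shoots (exact permutation p = 0.248, adjusted p = 0.996) and 0.124 points for WT against arr1,10,12 roots (exact permutation p = 0.981, adjusted p = 1). The sign of the latter turned under 6 alternatives, so it has no stable direction.

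**Figure D2:**
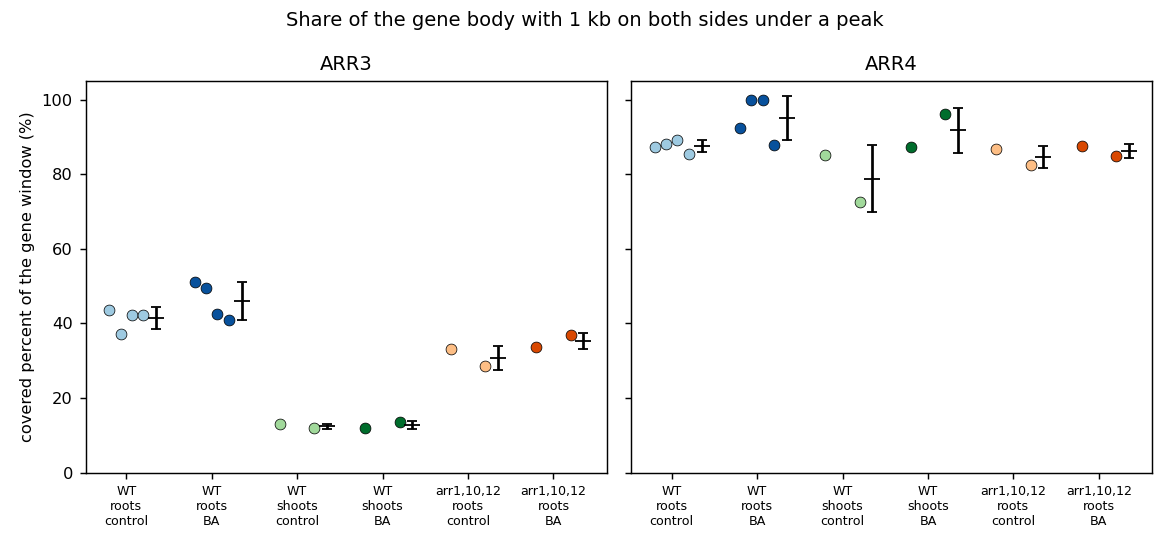
Covered percent (y axis, 0 to 100%) of the gene body plus 1 kb on either side for ARR3 and ARR4 in the 6 groups on the x axis; dots are libraries, the black mark beside them the mean and its bar 1 SD (n = 4 for WT roots, 2 for the others). ARR3 sits at 37.1 to 51.2% in WT roots, 28.5 to 36.8% in arr1,10,12 roots and 11.9 to 13.5% in shoots, whereas ARR4 stays between 72.5 and 100% in all groups.

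ARR4 was open in every group, and its peaks differed mainly in how far they ran without a break. The 55 peaks of the 16 libraries joined into 1 region at chr1:3438026-3453299, 15274 bp wide. That is the full extent of the single peak of BA root library 2. The other libraries, apart from BA root library 3, had a gap in the middle of the gene body, with peaks on either side.

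**Figure D3:**
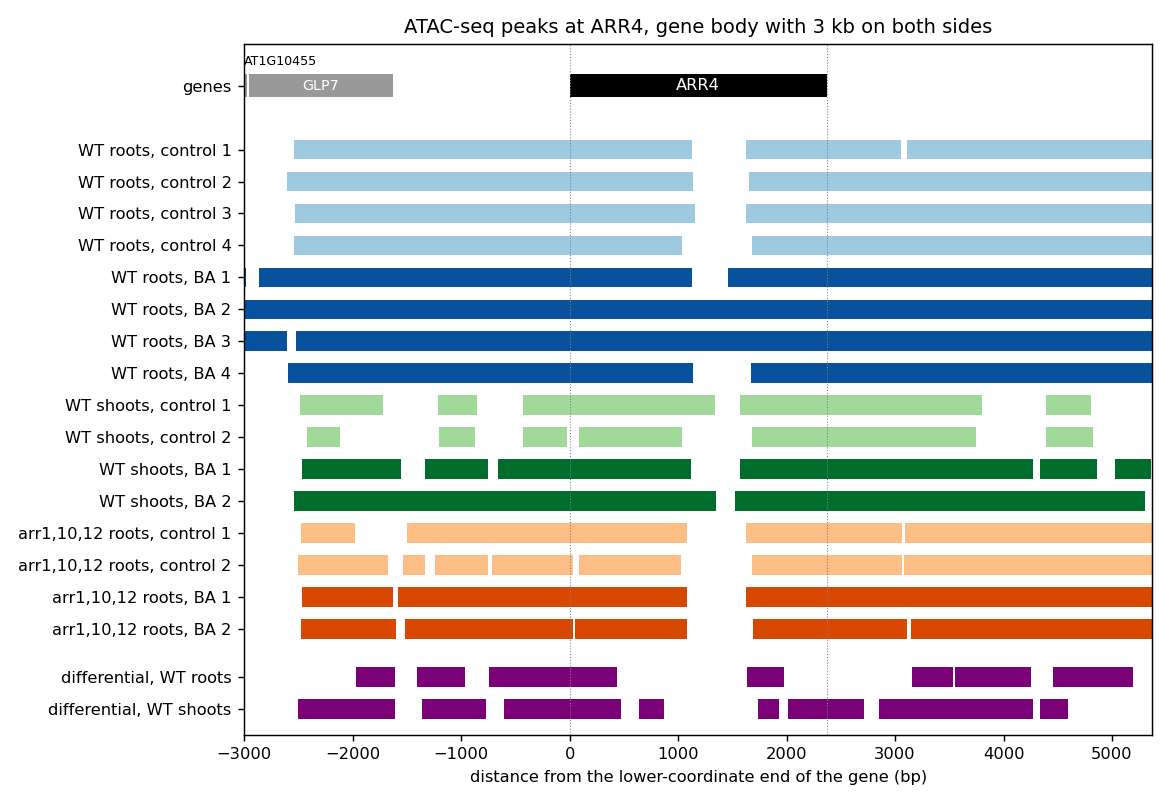
Peaks of each library (rows) along the ARR4 gene body plus 3 kb on either side; the x axis gives the distance in bp from the lower-coordinate end of the gene, bars are peaks cut at the edges of the plot, and purple bars are the authors' differential regions. WT roots are nearly filled, the gap inside the gene is closed in BA root libraries 2 and 3, and the separate pieces of control shoots are wider in BA shoot library 1 and mostly joined in BA shoot library 2.

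The gap in the gene body measured 496, 516, 471 and 641 bp in WT control root libraries 1 to 4. With BA it measured 327, 0, 0 and 533 bp, so that it was closed in libraries 2 and 3 and lay within the control range in library 4. It was 229 and 647 bp in control shoots, 450 and 172 bp in BA shoots, 548 and 650 bp in arr1,10,12 control roots and 540 and 611 bp in arr1,10,12 BA roots. Closure of the gap was seen in no library outside WT BA roots.

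The widest peak touching the ARR4 body was wider in every BA library of WT roots than in every control library. It was 3670, 7380, 7411 and 6228 bp in control, with a mean of 6172 ± 1757 (SD, n = 4). With BA it was 7651, 15274, 11628 and 8269 bp, with a mean of 10706 ± 3511 (n = 4). The same held for 0.292% of the 21881 genes with a peak on the body, and the measure was chosen after its values were seen, so it is given without a test. In BA root libraries 1 to 4, 34, 5, 6 and 17 peaks of the whole genome were at least as wide, that one included. In the control libraries 40 to 513 peaks were.

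Outside WT roots the widest peak on the ARR4 body was 2231 and 2069 bp in control shoots and 2698 and 3892 bp in BA shoots. In arr1,10,12 roots it was 2584 and 1386 bp in control and 6851 and 1546 bp with BA. Part of the difference from WT lay in short breaks. With gaps of up to 150 bp bridged, the arr1,10,12 values became 7472 and 8197 bp in control and 9697 and 7334 bp with BA, beside 6581 to 8172 bp in WT control roots and 9641 to 15274 bp in WT BA roots.

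The window covered percent of ARR4 in WT control roots was 87.3, 88.2, 89.2 and 85.3%, with a mean of 87.5 ± 1.7 (SD, n = 4). In WT BA roots it was 92.5, 100, 100 and 87.8%, with a mean of 95.1 ± 6.0 (n = 4). BA libraries 1 to 3 stood above every control library, and library 4 lay within the control range. The difference of 7.57 points did not pass the test (exact permutation p = 0.0857, adjusted p = 0.874). BA exceeded control in all 4 pairs of equal replicate number, by 5.24, 11.8, 10.8 and 2.47 points.

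Both root differences, 4.62 points at ARR3 and 7.57 at ARR4, stood against a median of -1.67 points over all windows. These are percentiles 97.8 and 99.1 of all windows. No window passed the adjusted threshold for BA in WT roots by this test, and 761 of 24541 had an unadjusted p under 0.05. The smallest exact permutation p of this design, 0.0286, could pass after adjustment only if a large share of all windows had it. Not passing therefore says little about a single window.

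In shoots ARR4 was 85.2 and 72.5% covered in control and 87.4 and 96.1% with BA. The BA mean was 12.9 points higher and the groups did not overlap, as in 14.3% of the 23435 windows with a peak in shoots. In arr1,10,12 roots the values were 86.8 and 82.6% in control and 87.7 and 84.9% with BA, which overlapped and differed by 1.61 points. The difference between the BA effects was -5.33 points for WT roots against shoots (exact permutation p = 0.7, adjusted p = 1) and 5.96 points for WT against arr1,10,12 roots (exact permutation p = 0.205, adjusted p = 1). The former was -19.1 points with 3 kb flanks (exact permutation p = 0.329, adjusted p = 0.929) and 6.07 points for the gene body alone.

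The tissue and genotype differences of ARR4 were smaller in points. WT roots exceeded shoots by 6.003 points (means of 91.3 and 85.3%, exact permutation p = 0.102, adjusted p = 0.170). WT roots exceeded arr1,10,12 roots by 5.81 points (means of 91.3 and 85.5%, exact permutation p = 0.0489, adjusted p = 0.468). In both comparisons the libraries overlapped in this window. The tissue difference was 1.28 points with each library's mean subtracted (exact permutation p = 0.68) and 1.01 points for the gene body alone (exact permutation p = 0.836). The order of means was WT BA roots, BA shoots, WT control roots, arr1,10,12 BA roots, arr1,10,12 control roots and control shoots, and each group overlapped its neighbour in that order. Over the wider span with 3 kb on both sides the tissue difference at ARR4 was 18.6 points and passed (adjusted exact p = 0.0212). The share of all genes that passed over that span is not given here. The genotype difference there was 8.19 points (exact permutation p = 0.00444, adjusted p = 0.229). The lowest WT root library had 86.8% and the highest arr1,10,12 library 86.7%. In the lower-coordinate 3 kb flank arr1,10,12 roots had 70.4% in control and 80.3% with BA, beside 85.2 and 94.9% in WT roots.

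**Figure D4:**
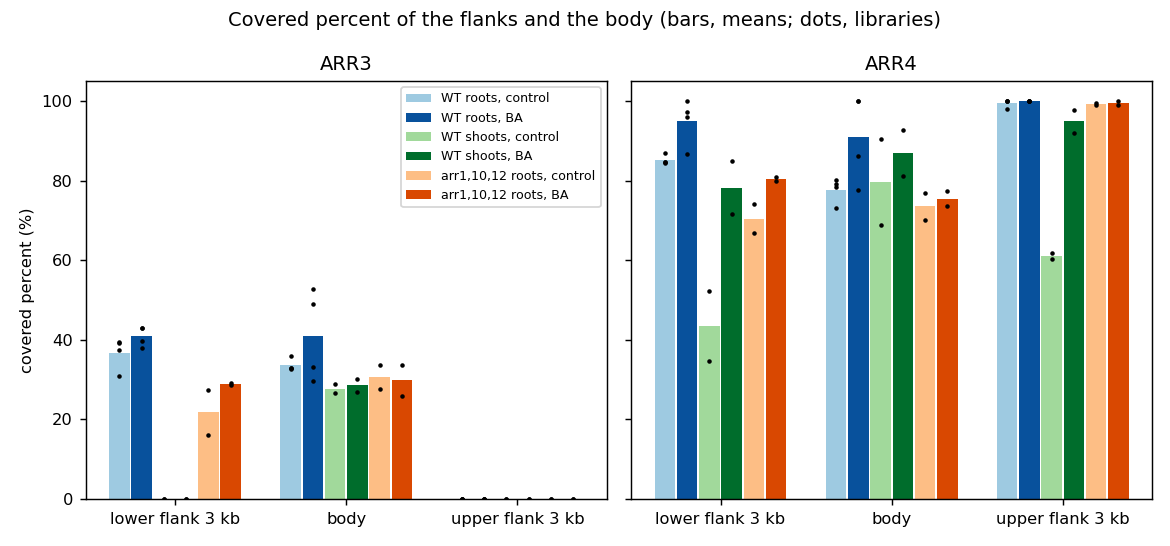
Covered percent (y axis) of the gene body and of the 3 kb flank on its lower- and higher-coordinate side at ARR3 and ARR4, by group (colours); bars are means, dots single libraries (n = 4 for WT roots, 2 for the others). ARR3 has no peak in the higher-coordinate flank in any group and none in the lower-coordinate flank in shoots, and the ARR4 flanks are 43.5 and 61.0% covered in control shoots and 78.2 and 94.9% in BA shoots.

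The tissue contrast at ARR4 lay in the flanks, of which the lower-coordinate one holds the neighbouring gene GLP7. GLP7 is 1330 bp long and 1628 bp from ARR4. Its body was 69.7% covered in WT control roots and 40.4% in control shoots. In the 1 kb next to ARR4 on that side the values were 100% and 55.8%. The 3 kb flank on the lower-coordinate side was 85.2 ± 1.2% covered in WT control roots (n = 4) and 43.5 ± 12.4% in control shoots (n = 2). The higher-coordinate flank was 99.5 ± 1.0% covered in WT control roots and 61.0 ± 1.1% in control shoots. With BA the 2 flanks in shoots reached 78.2 ± 9.4% and 94.9 ± 4.0% (n = 2), above both control shoot libraries in each flank. In WT BA roots they were at 94.9 ± 5.8% and 100%.

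In shoots, 1432 bp of the ARR4 span, 17.1%, lay under a peak in both BA libraries and in neither control library. The share of bases over the genome that separate by such rules was not counted, here or at ARR3. Of all windows with a peak in shoots, 14.3% had both BA libraries above both control libraries. Control shoot library 2 also had the smallest covered length of all libraries, 19.7 Mb. The longest of these stretches were 466 bp (3445792 to 3446257) and 278 bp (3447013 to 3447290) beyond the higher-coordinate end, and 223 bp (3441331 to 3441553) before the lower-coordinate end. No base was covered in both control libraries and in neither BA library. At ARR3 no base separated BA from control shoots in either direction.

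The authors' deposited differential region lists (760 root and 685 shoot regions) hold positions without direction or score. They were made on the same libraries, so the covered percent in them is a description. ARR4 had 6 shoot regions in its window, more than any other gene, and 8 in the wider span, with 5384 bp in all. ARR3 had none in shoots. In roots ARR4 had 4 regions in its window and 7 in the span, and ARR3 had 2. Of the 599 genes with a root region in the window, 13 had at least 4.

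Covered percent moved in 5 of the 8 ARR4 shoot regions and was 100% in every library in the other 3. The widest region (3444843 to 3446260, 1418 bp) was 65.0 ± 2.8% covered in control shoots and 99.9 ± 0.15% in BA shoots (n = 2 each). A region over the lower-coordinate gene end (3441383 to 3442460, 1078 bp) had 78.7 ± 7.7% and 100%. The region at 3440623 to 3441220 had 58.3 ± 3.7% and 97.1 ± 4.1%.

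The root regions were already covered in control. At ARR4, 6 of the 7 were 100% covered in all 8 WT root libraries, and the other, at 3443623 to 3443960 inside the gene, had 95.3 ± 6.1% in control and 97.0 ± 5.9% with BA (4 libraries each). At ARR3 the region at 22064603 to 22065080 was 100% covered in all WT root libraries, 0% in all shoot libraries, and 48.3 ± 47.0% and 75.6 ± 5.5% in control and BA arr1,10,12 roots (n = 2 each). The region at 22065383 to 22065940, across the gene end, had 96.9 ± 6.2% in control and 100% in BA roots. The presence of a peak therefore did not separate BA from control roots in these regions, and a change in height within a peak is not held in the lists.

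The neighbours of ARR4 shared its peaks. AT1G10455 and GLP7, a germin-like protein gene, lie on the lower-coordinate side at 2974 and 1628 bp, and ZFP5, a zinc finger regulator of root hair formation, lies 5206 bp beyond the other end. In WT roots the window of AT1G10455 was 44.1 ± 8.3% covered in control and 71.0 ± 10.6% with BA. GLP7 had 73.0 ± 6.1 and 92.8 ± 7.8%, and ZFP5 had 83.9 ± 7.9 and 97.9 ± 2.6% (n = 4 each).

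All 3 neighbours had every BA root library above every control root library, as in 0.249% of all windows, whereas the ARR4 window did not. Each had an exact permutation p of 0.0286, the smallest that 4 against 4 libraries allow, and an adjusted p of 0.874. The difference was 26.9 points at AT1G10455, 19.9 at GLP7 and 14.0 at ZFP5, beside 7.57 at ARR4, where control already covered 87.5%. Since single peaks spanned several of these genes, the 4 windows are not independent of each other.

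The ZFP5 window itself was nearly without peaks in shoots, although the ARR4 flank on that side was not. It was 0% covered in both control shoot libraries and 6.49 ± 9.2% with BA (n = 2), against 91.9 ± 0.14 and 95.4 ± 2.0% in control and BA arr1,10,12 roots. GLP7 had 26.6 ± 10.6 and 51.6 ± 8.5% in shoots and 47.6 ± 8.9 and 56.5 ± 4.9% in arr1,10,12 roots. WT roots exceeded shoots by 38.4 points at AT1G10455, 43.8 at GLP7 and 87.7 at ZFP5, each with an adjusted exact p of 0.0141. Of 25007 windows, 35.5% passed as higher in roots, so passing was common. These permutations again treat replicate pairs as independent, and the windows of AT1G10455 and GLP7 overlap.

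The nearest neighbour of ARR3 went the other way between tissues. AT1G59950, 799 bp beyond the higher-coordinate end, had 7.75 ± 1.9% and 6.60 ± 7.4% in control and BA WT roots (n = 4) and 18.3 ± 0.23% and 19.0 ± 3.4% in shoots (n = 2). It was thus lower in roots by 11.5 points (WT roots minus shoots of -11.5, exact permutation p = 0.00889, adjusted p = 0.0242), opposite in sign to ARR3. Of 25007 windows, 9.66% passed as lower in roots. AT1G59930, 4100 bp away on the other side, had no peak in its window in 14 libraries.

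Among the 10 type-A genes, a list chosen with earlier results of these data known, the BA root mean was above the control mean in 10, with a median difference of 8.85 points. Over all windows with a peak it was above in 4933 and below in 19424. Without ARR3 and ARR4 it was above in 8 of 8, with a median of 10.3 points. ARR3, at 4.62 points, had the smallest difference of the 10, and ARR4 was at 7.57. None of the 10 passed the adjusted test, which a single window could not pass on its own in this design.

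The type-A genes whose BA and control root libraries did not overlap were ARR7, ARR16 and ARR17, 3 of 10 beside 0.249% of all windows. ARR7 went from 35.9 ± 3.0 to 81.1 ± 10.6%, ARR16 from 3.33 ± 3.9 to 25.03 ± 6.8% and ARR17 from 50.1 ± 4.5 to 63.1 ± 4.1% (n = 4 each), and each had an exact permutation p of 0.0286. In shoots BA exceeded control in 9 of 10 genes, with a median of 11.0 points, and 8 did not overlap, ARR4 among them and ARR3 not. Over all windows in shoots 14301 were higher and 8831 lower, and 14.3% were higher without overlap. In arr1,10,12 roots 8 of the 9 genes with a peak were higher with BA, with a median of 3.79 points, and 5 did not overlap, ARR3 among them and ARR4 not. Over all windows of that genotype 6601 were higher and 16896 lower, and 4.92% were higher without overlap.

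**Figure D5:**
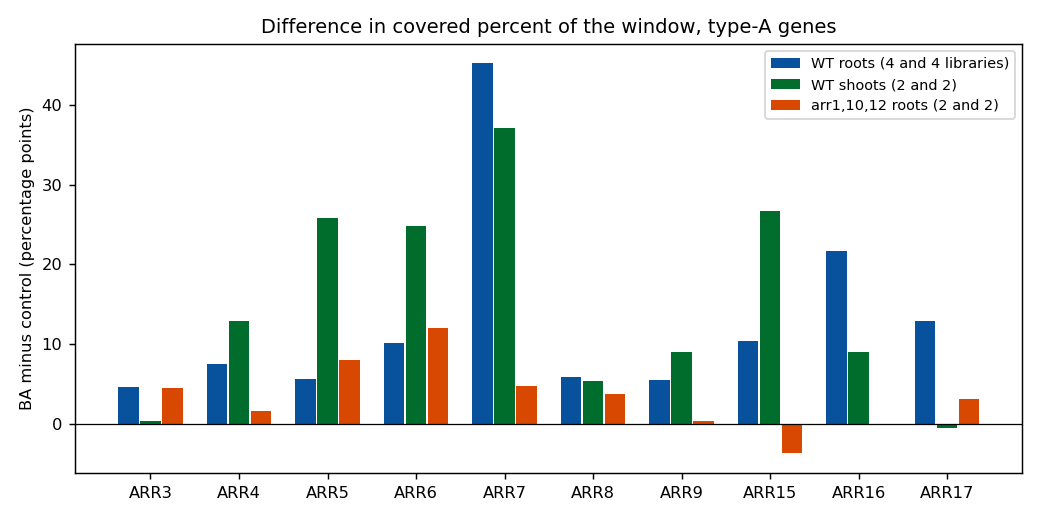
Difference between the BA and control mean of the window covered percent (y axis, percentage points) for the 10 type-A genes (x axis) in WT roots, WT shoots and arr1,10,12 roots; bars are differences of means without error bars, from the numbers of libraries in the legend. The WT root difference is above 0 in all 10 genes, ARR3 has 4.62 points in WT roots and 0.359 in shoots, and ARR7 is the highest at 45.2 points in WT roots.

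WT roots exceeded arr1,10,12 roots in all 10 type-A genes, with a median of 12.4 points beside 0.515 over all windows, and the libraries did not overlap at ARR3, ARR7 and ARR17, beside 1.27% of all windows. None passed the adjusted test. Between tissues, 7 of 10 were higher in WT roots, as were 17979 of all 25007 windows. Of these, 4 passed (ARR3, ARR5, ARR8 and ARR17), and ARR7 passed with a lower value in roots. Over all windows 35.5% passed as higher and 9.66% as lower, so these counts were near the background.

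The other genes of the pathway had small median differences. For BA minus control in WT roots the median was 0.229 points for the 3 receptor genes AHK2, AHK3 and AHK4, 0.149 for the 6 phosphotransfer genes AHP1 to AHP6, and -1.06 for 7 type-B genes. None of these 16 genes had BA root libraries all above the control libraries.

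The gene whose window was most like that of ARR4 over the 16 libraries was ARR9, another type-A gene. Likeness was the mean absolute difference of covered percent after each gene was centred on its own mean, among 19560 genes with a range of at least 10 points. It was not scaled by range, so a gene with small changes could come close without a shared pattern. It was 2.33 points for ARR9, and then 2.97 for AT5G56310, 3.16 for CKX3, a cytokinin-degrading enzyme gene, 3.40 for CBL and 3.44 for AT1G09360, beside a median of 7.17. For ARR3 it was 2.86 points for MAPKKK17, 2.95 for AT3G13610, 3.00 for MEB1, 3.06 for AT1G11655 and 3.20 for UGT73C7, beside a median of 10.5. ARR4 and ARR3 were 9.12 points apart. Seen from ARR3 that was rank 5749 of these genes, below the median of 10.5, and seen from ARR4 rank 14444, above the median of 7.17. The paralogues were thus not among each other's most alike genes. AT1G09360 had a mean of 0% in every group but WT BA roots, at 5.06%, so it did not share the ARR4 rise with BA in shoots.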

How the data were processed

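ATAC-seq peaks of 16 Arabidopsis libraries were used, and the series' 12 RNA-seq samples were left out. The submitters' processing notes name the build TAIR10 and the tools HOMER 4.9.2, deepTools 2.5.2, SAMtools 1.5 and Bowtie 1.2.0, without the role of each tool or the peak threshold. The authors deposited 1 peak list per library and 2 lists of differential regions, whose names give diffReps. These hold chromosome, start and end, and no score, signal or read number, so that depth is unknown and no counting error can be given.

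Genes came from a RefSeq table of assembly TAIR10.1 without strand. Of the offsets tried around ARR3 and ARR4, 0 bp gave the highest cover of gene flanks by peaks. That cover was 41.9 and 48.8% (460 and 564 genes within 1 Mb). Coordinates are printed from the peak lists alone. For each protein-coding gene, the percent of the window under a peak was computed with Python 3.11.15 and NumPy 2.4.6. Differences of group means were tested by exact permutation (two-sided), within treatment for tissue and genotype and within tissue or genotype for differences of BA effects. P-values were adjusted by Benjamini-Hochberg over all windows with a peak in a library compared (threshold 0.05). As a check of the code, 200 simulated windows of middle cover with independent noise were given a shift. That shift was larger than the BA differences of ARR3 and ARR4 in WT roots. All 200 had an unadjusted exact permutation p under 0.05 in each design. This gives no power for small differences, for windows near full cover or after adjustment. The smallest exact p is 0.0286 for 4 against 4 libraries, 0.00444 within treatments, 0.00476 for differences of effects and 0.333 for 2 against 2.

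In WT roots, deviations from the group mean correlated at 0.309 to 0.464 between BA and control libraries of the same replicate number and at -0.342 to 0.231 otherwise, so the numbers pair these libraries. The permutations of 8 against 4 libraries treat pairs as independent; whole pairs allow only 15 splits and a smallest p of 0.0667.

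The genes and lists were chosen with earlier results of these data known. Named genes were ARR3, ARR4, their protein-coding neighbours, pathway genes whose BA and control root libraries did not overlap, and the 5 most alike genes. Planned promoter motif and protein comparisons were not run, as no sequence was used here. Alternatives were the gene body alone, 3 kb flanks, peaks under 300 bp left out, gaps of up to 150 bp bridged, each library's mean subtracted, pooled permutation, a replicate block and leaving out each library.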

Additional observations from a re-analysis of the deposited data

Results flagged for a closer look

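In 5 of the 19 sets of 4 WT root libraries with any spread, 1 library stood far from the other 3 relative to the range. The share marked by chance, about 1 in 20, holds for normal values, and sets that share bases are not independent. In the sets marked at 81.4, 94.0 and 98.0% the other 3 libraries were all at 100%, where any lower value is marked. The 5 marks are therefore not to be read as an excess. In the ARR3 gene body, control library 1 was the highest at 35.9%. In the 1 kb flank on the lower-coordinate side of ARR3, control library 2, whose peak was broken in 2, was the lowest at 81.4%. At ARR4, control library 1, which had a break in its peak, was the lowest in the higher-coordinate flank, at 94.0% of 1 kb and 98.0% of 3 kb. In the 3 kb flank on the lower-coordinate side of ARR4, control library 2 was the highest at 86.9%.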

How the results depend on the processing

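Of 168 alternatives over 10 differences, 157 kept the direction and the side of the threshold. For the gene body alone, the ARR3 difference between roots and shoots was 9.18 points (adjusted exact p = 0.143) and no longer passed, and the ARR4 difference of BA effects between roots and shoots turned to 6.07 points. With 3 kb flanks, the ARR4 difference between roots and shoots was 18.6 points and passed, as it did without BA shoot library 2 (8.16 points, adjusted exact p = 0.0390). With gaps bridged, the ARR3 difference of BA effects between WT and arr1,10,12 turned to -2.63 points. The causes were not tested. Among differences that stayed under the threshold, those for BA in WT roots were 7.45 points at ARR3 and 13.3 at ARR4 for the gene body alone.

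Leaving out 1 library gave 2.89 to 6.33 points for BA in WT roots at ARR3 and 5.93 to 9.99 at ARR4. For roots minus shoots it gave 30.2 to 32.0 at ARR3 (adjusted exact p of 0.0202 to 0.0396) and 2.85 to 9.16 at ARR4. For WT minus arr1,10,12 roots it gave 9.50 to 11.8 at ARR3 and 4.76 to 7.03 at ARR4. For BA effects in roots minus shoots it gave 2.53 to 5.97 at ARR3 and -11.6 to 0.983 at ARR4, the latter above 0 without control shoot library 2. For BA effects in WT minus arr1,10,12 roots it gave 3.85 to 8.38 at ARR4 and -2.17 to 2.42 at ARR3, where 5 omissions turned the sign (-1.60 and -1.06 without WT BA libraries 1 and 2, -1.30 without WT control library 2, -1.41 and -2.17 without arr1,10,12 BA and control library 1).

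With the replicate block, the BA differences in WT roots were again 4.62 points at ARR3 (exact permutation p within pairs = 0.375, adjusted p = 0.759) and 7.57 at ARR4 (p = 0.125, the smallest possible, adjusted p = 0.595), and no call changed. The BA minus control difference of the widest ARR4 peak, 4533 bp, was 4752 bp with gaps bridged and 3010 to 5551 bp without 1 library, alternatives chosen after seeing the data. Joining peaks only where 50% of the narrower one overlapped gave the same numbers of regions. Unknown depth limits all of these values, since peak edges move with it.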
